A study of Mus musculus with 6 samples.

Results

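The genes described here encode proteins of the retinal interstitial matrix and the vitreous: the matricellular proteins Sparc, Sparcl1, Thbs1 and Tnc, the collagen chains Col6a1, Col6a2 and Col9a1, and the glycoproteins and proteoglycans Fn1, Vcan and Optc. They were chosen by gene symbol, and all 10 were found among the 54532 genes of the deposited table. RNA was sequenced from the retinas of mouse pups with oxygen-induced retinopathy, a model in which high oxygen thins the growing retinal vessels and new vessels form afterwards in room air. In the antagomir group, 3 libraries came from eyes injected in the vitreous on postnatal day 12 with 1 nmol of antagomir, directed against miR-381-3p. In the control group, 3 libraries came from eyes injected on the same day with 1 nmol of a negative control antagomir. Antagomirs are synthetic RNA-like strands complementary to a microRNA that keep it from its messages. All pups were placed in 75% ± 2% oxygen with their mothers from postnatal day 7, and all retinas were taken on postnatal day 17. The labels do not give the strain, or say whether each library is 1 animal. Both groups had retinopathy and an injection, and the gene table holds no mature microRNA level, so the block of miR-381-3p itself was not checked here. The control columns of the table carry the control's name, while the other 3 carry only a letter of unstated meaning and a number. They were read as the antagomir libraries, the one group left, and every direction given depends on this.

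Matricellular proteins are secreted proteins that modify how cells hold on to the matrix rather than bear load in it. Sparc and Sparcl1 are related calcium- and collagen-binding members of this class, Thbs1 is an inhibitor of vessel growth and activator of latent TGF-beta, and Tnc is a large glycoprotein raised during tissue remodelling. Collagen VI, built from Col6a1, Col6a2 and another chain, forms beaded microfilaments around vessels and cells, while collagen IX coats the collagen II fibrils of the vitreous and Col9a1 is one of its chains. Fn1 encodes fibronectin, on which endothelial tip cells migrate, Vcan encodes the hyaluronan-binding proteoglycan versican, and Optc encodes opticin, a leucine-rich protein of the vitreous made by the ciliary epithelium.

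A microRNA binds messages mainly through its seed, bases 2 to 8, so the seed of miR-381-3p is shown with the full 7-base matches in the members' longest annotated 3′ UTR. Capitals mark the seed in the microRNA and its complement in the messages, each with 10 bases on either side, all written 5′ to 3′.
miR-381-3p: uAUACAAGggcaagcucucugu
Thbs1: agcagtgtaaCTTGTATattactgttt
Col6a2: ctcccaactgCTTGTATtgttcaccag
The microRNA is the RefSeq entry for GRCm38, on the plus strand at chr12:109726870-109726891. The Thbs1 match lies at chr2:118127069-118127075 on the plus strand (GENCODE M21, GRCm38), 2040 to 2046 bases into a 3′ UTR of 2104 bases, and is followed by an adenine. The Col6a2 match lies at chr10:76598165-76598171 on the minus strand, in the longer of 2 annotated 3′ UTRs only. CTTGTAT therefore occurred in 2 of the 10 members, against 13.3% of 13192 tested genes with an annotated 3′ UTR. Tnc, Col9a1 and Fn1 held the 6-base TTGTAT without the seventh base, and Sparc, Sparcl1, Col6a1, Vcan and Optc held neither.

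The libraries held 13727596 to 16502352 reads in genes, rebuilt from the deposited FPKM (fragments scaled by gene length and library size). As a check of the tissue, all 9 Müller glia markers, genes of the main glia of the retina, were detected in every library. Lens transcripts set 3 libraries apart: 16 lens marker genes summed to 470.1 FPKM in antagomir replicate 1, 1040 FPKM in control replicate 2 and 403 FPKM in control replicate 3, against 5.32 to 11.1 FPKM in the other 3 libraries. The crystallin gene Cryaa, the most abundant of them, was at 99.03, 1.37 and 0.0474 FPKM in antagomir libraries and 0.342, 244 and 82.9 FPKM in control libraries. In the libraries with low sums, the lens genes Crybb2, Crygs, Crygd, Lim2 and Gja3 were at 0 in at least 1 library. Differences are therefore also given without these 3 libraries, which leaves 2 antagomir libraries against 1 control library and assumes that the lone control varies as the others do. Of 17453 genes with a mean of at least 0.5 FPKM, limma called 0 at an adjusted p of 0.05 (0.00% of genes tested) and 1082 at an unadjusted p under 0.05. Voom, limma's weighting for counts, called 1 on rebuilt reads. All 10 members passed the filter, Vcan only just, at a mean of 0.411 FPKM in antagomir libraries and 0.613 FPKM in control libraries (0.512 FPKM over all).

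**Figure D1:**
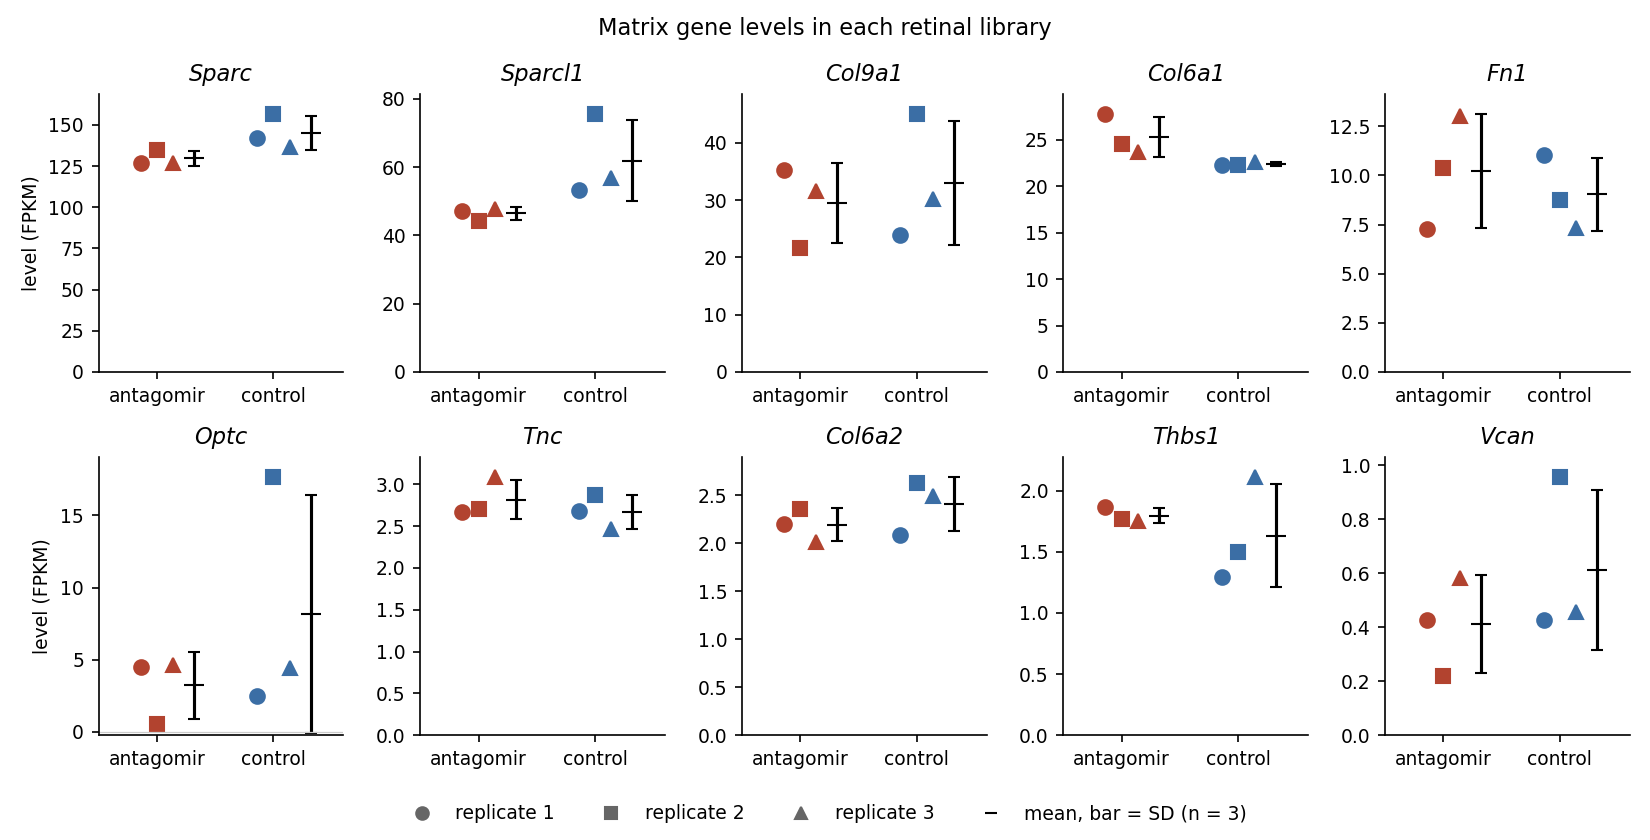
Level of each matrix gene in FPKM (vertical axes start at or below 0 and differ between panels) in the 3 antagomir libraries and the 3 control libraries. Points are libraries, black dashes group means and bars SD (n = 3). The antagomir points of Sparc and Sparcl1 lie below all control points, those of Col6a1 lie above them, and the other 7 genes overlap.

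None of the 10 members passed the test. Antagomir and control libraries did not overlap for 3 of them, Sparc and Sparcl1 (lower in antagomir) and Col6a1 (higher), where 12.03% of all genes tested did not overlap, 5.87% lower and 6.16% higher in antagomir libraries. At an unadjusted p under 0.05 by limma there were 2 members, Sparcl1 and Col6a1, where 6.20% of genes passed. The median difference over the members was -0.12 on the log2(FPKM + 1) scale, against 0.0013 over all genes tested, with 4 point estimates above 0 and 6 below. These values include Vcan, which lay below 0 and passed the filter only through control replicate 2. A shift of the members as a set was not tested.

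**Figure D2:**
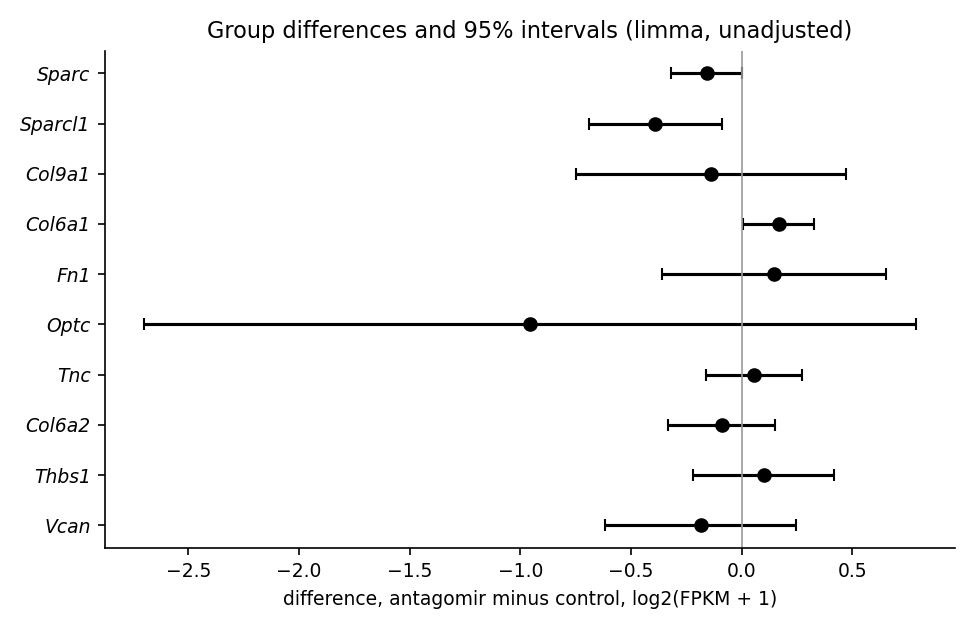
Difference between group means, antagomir minus control, on the log2(FPKM + 1) scale for each matrix gene, in order of mean level. Bars are 95% intervals from limma, not adjusted for the number of genes. Only the intervals of Sparcl1 and Col6a1 leave out 0, and that of Optc, from -2.70 to 0.79, is the widest.

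Among the matricellular genes, Sparc was the most abundant member (ENSMUSG00000018593, chromosome 11, 55394500 to 55423183 in GRCm38, minus strand), above 99.0% of all genes tested in level. It stood at 127, 135 and 127 FPKM in antagomir libraries and at 142, 157 and 137 FPKM in control libraries, from 6999 to 9011 reads each. The highest antagomir library lay just under the lowest control library. The difference was -0.16 on the log2 scale (SE 0.067, adjusted p = 0.801 by limma), and its 95% interval spanned ratios of 0.802 to 1.00. Ratios in this and all later limma intervals are of FPKM + 1. The difference was -0.10 without control replicate 2, the library with the highest level, and -0.12 without the 3 lens libraries.

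Sparcl1 showed the same order with a larger gap (ENSMUSG00000029309, chromosome 5, 104079111 to 104113733, minus strand). Its level was 47.2, 44.3 and 47.8 FPKM in antagomir libraries and 53.4, 75.5 and 56.8 FPKM in control libraries. The antagomir libraries were close to each other (46.4 ± 1.86 FPKM, SD, n = 3), while the controls averaged 61.9 ± 11.9 FPKM with control replicate 2 well above the other two. The log2 difference was -0.39 (SE 0.13, adjusted p = 0.801 by limma), with a 95% interval of 0.619 to 0.939 as a ratio. It was -0.24 without control replicate 2 (SE 0.061, adjusted p = 0.799 by limma) and -0.21 without the 3 lens libraries. The unadjusted limma p was under 0.05 in 13 of 15 alternatives, which refit the same libraries and are not independent. The lowest adjusted limma p among them was 0.611, and a matching count over all genes was not made. Among the lens libraries alone, antagomir replicate 1 was at 47.2 FPKM, under the 75.5 and 56.8 FPKM of the control libraries. That order follows from the lack of overlap over all 6 libraries and adds nothing to it.

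Some markers of other cells were also lower in antagomir libraries. The summed level of 10 pericyte and smooth muscle markers was 25.2, 21.9 and 29.3 FPKM in antagomir libraries and 32.9, 44.3 and 29.5 FPKM in control libraries. This separation came with 1 abundant marker, the pericyte gene Rgs5, at 17.5, 14.3 and 19.9 FPKM against 22.4, 31.4 and 22.2 FPKM. Without Rgs5 the sums overlapped, at 7.66, 7.65 and 9.38 FPKM in antagomir libraries and 10.5, 12.8 and 7.3 FPKM in control libraries. Of the 10 markers 8 overlapped, the exceptions being Rgs5 and Des, where 12.03% of all genes tested did not overlap. The sum of 9 Müller glia markers overlapped, at 762 to 838 FPKM in antagomir libraries and 805 to 1006 FPKM in control libraries. The glutamine synthetase gene Glul led them at 392 to 443 against 419 to 547 FPKM, 3 of the 9 point estimates were above 0 and 6 below, and the water channel gene Aqp4 was higher in every antagomir library, at 16.05, 17.6 and 15.3 FPKM against 14.5, 15.2 and 14.1 FPKM. Control replicate 2, the library with the highest Sparc and Sparcl1, was the highest for 7 of the 10 pericyte, 8 of the 9 endothelial and 5 of the 9 Müller glia markers. No pericyte, endothelial or Müller marker was at 0 in any library. Throughout, markers other than the most abundant of a list were named after their values were seen. In bulk tissue, fewer cells of a type and less RNA per cell cannot be told apart, and the part of these cells in the Sparc and Sparcl1 values was not tested.

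Within a library, Sparcl1 stood at 0.372, 0.329 and 0.376 of the Sparc level in antagomir retinas and at 0.376, 0.483 and 0.415 in control retinas. The groups met at their edges. The log2 ratio was lower by 0.24 in antagomir libraries, as -1.48 ± 0.11 against -1.24 ± 0.18 (SD, n = 3 each; exact permutation p = 0.2, two-sided, where 3 against 3 libraries cannot go below 0.1).

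Thbs1, the member with the full match followed by an adenine, was low and showed its spread on the control side (ENSMUSG00000040152, chromosome 2, 118111876 to 118127133, plus strand). It was at 1.87, 1.77 and 1.75 FPKM in antagomir libraries and 1.29, 1.495 and 2.11 FPKM in control libraries, from 117 to 177 reads. Control replicate 3 was above all antagomir libraries and the other controls below them. The log2 difference was 0.098 (SE 0.13, adjusted p = 0.923 by limma), and the 95% interval of the ratio of FPKM + 1, 0.860 to 1.33, holds both a rise and a fall. Without control replicate 1 it was 0.0054, without control replicate 3 it was 0.22, and without the lens libraries 0.27.

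Tnc was the steadiest of the low members (ENSMUSG00000028364, chromosome 4, 63959785 to 64047015, minus strand). Its level was 2.66, 2.70 and 3.08 FPKM in antagomir libraries and 2.68, 2.87 and 2.47 FPKM in control libraries, and the groups overlapped. The log2 difference was 0.055 (SE 0.091, adjusted p = 0.938 by limma), with ratios of 0.894 to 1.21 inside the 95% interval. Thbs1, Tnc and Fn1 each share a few exonic bases with an antisense transcript (2.27% to 3.43% of the gene's exonic bases), and those partners averaged at most 0.0900 FPKM.

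The collagen VI genes had point estimates in opposite directions. Col6a1 (ENSMUSG00000001119, chromosome 10, 76708792 to 76726168, minus strand) was at 27.8, 24.5 and 23.7 FPKM in antagomir libraries and at 22.3, 22.3 and 22.6 FPKM in control libraries. The controls were nearly equal (22.4 ± 0.174, SD, n = 3), and every antagomir library was above them, antagomir replicate 1 by the most. The log2 difference was 0.17 (SE 0.067, adjusted p = 0.801 by limma), a ratio of 1.005 to 1.26 in its 95% interval. It was 0.10 without antagomir replicate 1 and 0.11 without the lens libraries. Over 15 alternatives, which refit the same libraries, the unadjusted limma p was under 0.05 in 7 and the lowest adjusted limma p was 0.714.

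Col6a2 lies beside Col6a1 on the same strand (ENSMUSG00000020241, chromosome 10, 76595762 to 76623630) and carries the other full match to the seed. It was at 2.20, 2.36 and 2.02 FPKM in antagomir libraries and at 2.09, 2.63 and 2.49 FPKM in control libraries. The groups overlapped, and the 2 highest values were both in controls. Its log2 difference was -0.091 (SE 0.10, adjusted p = 0.909 by limma), with a 95% interval of 0.794 to 1.11 as a ratio, and it changed sign to 0.043 without the lens libraries. Neither gene with a full match was called higher in antagomir libraries, and in both the interval includes no change.

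The 2 chains are joined in 1 trimer. The Col6a2 level was 0.0791, 0.0964 and 0.0850 of the Col6a1 level in antagomir libraries and 0.0936, 0.118 and 0.110 in control libraries. Antagomir replicate 2 overlapped the lowest control. The log2 ratio was -3.53 ± 0.14 against -3.23 ± 0.17 (SD, n = 3 each), a difference of -0.30 (exact permutation p = 0.2, two-sided). The absolute ratio depends on the deposited gene lengths, 8326 bases for Col6a2 and 4380 for Col6a1, which count every annotated exon. By reads, Col6a2 held 259 to 333 and Col6a1 1369 to 1769 per library. Col6a3, the third chain of the common trimer, was under the 0.5 FPKM filter.

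Col9a1 varied widely inside both groups (ENSMUSG00000026147, chromosome 1, 24177610 to 24252684, plus strand). It was at 35.2, 21.7 and 31.6 FPKM in antagomir libraries and at 24.0, 45.0 and 30.1 FPKM in control libraries. Control replicate 2 was highest and antagomir replicate 2 lowest, with 3467 and 1789 reads. The log2 difference was -0.14 (SE 0.26, adjusted p = 0.944 by limma), and it was 0.10 without control replicate 2, 0.061 without antagomir replicate 2 and 0.12 without the lens libraries. The spread inside groups was larger than that of 92.3% of genes tested.

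Optc, the vitreous gene proper, was the most variable member (ENSMUSG00000010311, chromosome 1, 133897199 to 133907999, minus strand). It stood at 4.49, 0.549 and 4.64 FPKM in antagomir libraries, from 168, 23 and 197 reads, and at 2.45, 17.7 and 4.44 FPKM in control libraries, from 94, 691 and 158 reads. Control replicate 2 was 32.2 times antagomir replicate 2, and the remaining 4 libraries lay between 2.45 and 4.64 FPKM. Among those 4, the antagomir libraries, at 4.49 and 4.64 FPKM, lay just above the higher control, at 4.44 FPKM. The log2 difference was -0.96 (SE 0.73, adjusted p = 0.866 by limma), and it was -0.25 without control replicate 2, -0.34 without antagomir replicate 2 and -0.22 without the lens libraries. Its 95% interval spanned ratios of FPKM + 1 from 0.154 to 1.73. The spread of Optc inside groups exceeded that of 99.7% of genes tested.

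Summed ciliary markers were highest and lowest in the same libraries as Optc, as were the pericyte and Müller glia sums. The lens sum was also highest in control replicate 2. It was low in antagomir replicates 2 and 3 and control replicate 1, at 11.1, 5.32 and 6.29 FPKM. The summed level of 8 ciliary markers was 16.97, 12.1 and 16.5 FPKM in antagomir libraries and 13.6, 24.9 and 15.7 FPKM in control libraries. Both its highest library, control replicate 2, and its lowest, antagomir replicate 2, were those of Optc and of Col9a1. The most abundant ciliary marker, Mab21l2, was at 5.80, 5.12 and 6.38 FPKM against 4.59, 7.36 and 5.90 FPKM, and Msx1 was at 0 in antagomir replicate 2. Among the libraries low in lens transcripts, antagomir replicate 3 held 4.64 FPKM of Optc and 16.5 FPKM of ciliary markers, antagomir replicate 2 had 0.549 and 12.1 FPKM and control replicate 1 had 2.45 and 13.6 FPKM. Of 10 pigment epithelium and melanocyte markers, 5 were highest in control replicate 2 and 5 in other libraries. Of the former, the pigment cell gene Dct was at 4.14, 2.05 and 4.02 FPKM in antagomir and 2.37, 9.31 and 3.12 in control libraries. Mlana, another pigment cell gene, was at 0.993, 0.296 and 0.681 against 0.216, 5.39 and 0.580 FPKM. Of the latter, the pigment epithelium gene Rpe65 was at 6.435, 3.845 and 5.047 against 3.127, 3.436 and 10.06 FPKM. The part of ciliary and pigmented tissue in the Optc and Col9a1 values was not tested.

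Fn1 varied inside both groups, which overlapped (ENSMUSG00000026193, chromosome 1, 71585520 to 71653200, minus strand). It was at 7.28, 10.4 and 13.1 FPKM in antagomir libraries and at 11.03, 8.77 and 7.31 FPKM in control libraries. The 3 lens libraries held 7.28 to 8.77 FPKM and the 3 others 10.4 to 13.1 FPKM, a split noticed after the values were seen and not tested. Among the lens libraries, control replicate 2 had both the highest lens sum and the highest Fn1. By group the log2 difference was 0.15 (SE 0.21, adjusted p = 0.933 by limma), and it was -0.032 with the lens score as a term, -0.032 without antagomir replicate 3, 0.35 without antagomir replicate 1 and 0.072 without the lens libraries.

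Vcan was the lowest member (ENSMUSG00000021614, chromosome 13, 89655312 to 89742509, minus strand), above only 0.504% of genes tested in level. It was at 0.428, 0.221 and 0.583 FPKM in antagomir libraries and at 0.428, 0.955 and 0.455 FPKM in control libraries. Antagomir replicate 2, with 52 reads, was again lowest and control replicate 2, with 210, highest. The log2(FPKM + 1) difference was -0.19 (SE 0.18, adjusted p = 0.899 by limma). On this scale low genes are compressed, and with a pseudocount of 0.1 it was -0.47 and by voom -0.58, with the adjusted p between 0.797 and 0.995 over 14 alternatives. Without control replicate 2 it was -0.039.

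**Figure D3:**
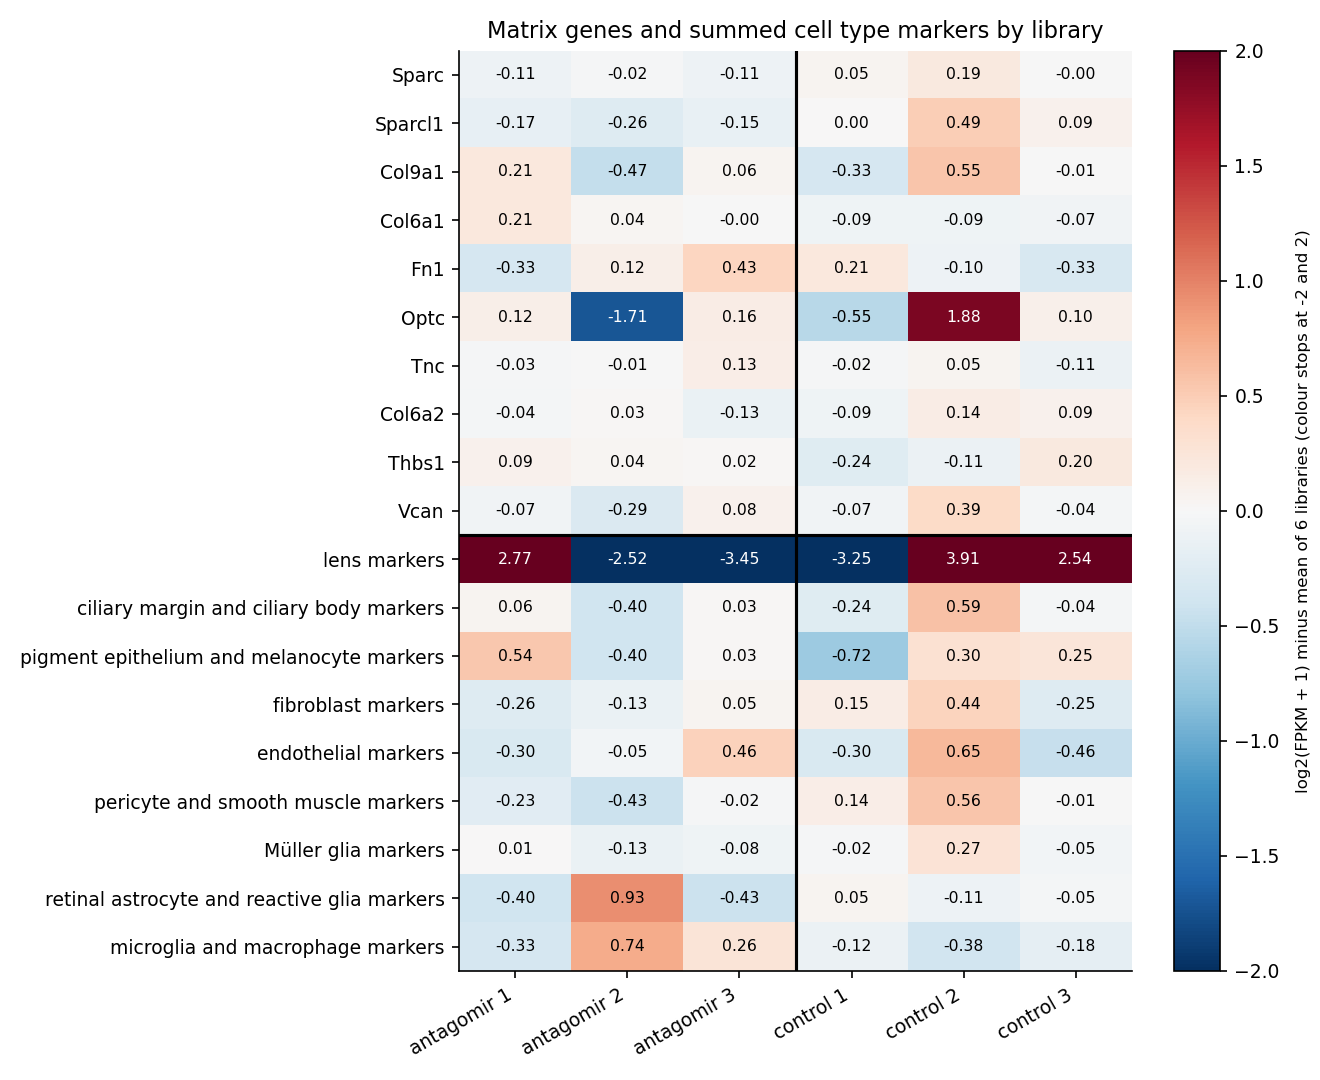
Level in each library minus the mean of the 6 libraries, on the log2(FPKM + 1) scale, for the matrix genes (above the line) and for the summed levels of cell type marker lists (below it). Control replicate 2 is the highest library for Sparc, Sparcl1, Col9a1, Optc, Col6a2 and Vcan and for the lens, ciliary, fibroblast, endothelial, pericyte and Müller glia sums, and Optc reaches 1.88 there and -1.71 in antagomir replicate 2.

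Across libraries, 6 of the 10 members were highest in control replicate 2, and 4 were lowest in antagomir replicate 2, where 17.9% and 17.7% of all genes tested had their highest and lowest value. These members are Sparc, Sparcl1, Col6a2, Col9a1, Vcan and Optc at the top, and Sparcl1, Col9a1, Vcan and Optc at the bottom. Vcan passed the filter only through control replicate 2, with a mean of 0.423 FPKM over the other 5 libraries, and without it the counts were 5 and 3 of 9. Control replicate 2 also had the highest fibroblast sum (7 markers), at 6.03 FPKM, against 3.33 to 4.36 FPKM in antagomir libraries and 3.36 to 4.74 FPKM in the other controls, led by Pdgfra at 3.08 FPKM there, and the fibroblast markers Twist2 and Lum were at 0 in some libraries. Antagomir replicate 2 had the highest microglia and macrophage sum (9 markers), at 109 FPKM, and the lysosomal protease gene Ctss, the most abundant of them, was at 49.0 FPKM there. The sum was 51.4 and 78.0 FPKM in the other antagomir libraries and 49.5 to 59.8 FPKM in controls. Endothelial markers (9) summed to 27.0 to 46.5 FPKM in antagomir libraries and 24.0 to 53.3 FPKM in control libraries, highest in control replicate 2, and pigment epithelium and melanocyte markers (10) to 48.9 to 95.3 against 39.1 to 80.5 FPKM. The most abundant genes of these lists were the VEGF receptor gene Kdr at 9.87 to 20.3 against 8.66 to 12.8 FPKM, the 1 endothelial marker of 9 not highest in control replicate 2, and the transthyretin gene Ttr at 36.8 to 68.3 against 24.4 to 49.9 FPKM. Red blood cell markers (6) summed to 21.4 to 61.2 FPKM in antagomir libraries and 66.4 to 220.1 FPKM in control libraries without overlap, and astrocyte and reactive glia markers (5) to 106 to 274 against 133 to 149 FPKM. They were led by the globin gene Hbb-bs at 12.6 to 33.6 against 45.1 to 134 FPKM and by the aldolase gene Aldoc at 76.7 to 87.6 against 95.3 to 108 FPKM. Without Hbb-bs the red blood cell sums were 13.1, 8.82 and 27.6 FPKM in antagomir and 86.0, 39.5 and 17.9 FPKM in control libraries. Those sums overlapped, as did 5 of the 6 red blood cell markers, all but Hbb-bs, where 12.03% of all genes tested did not overlap. The glial sum of 274 FPKM was that of antagomir replicate 2, where the reactive glia genes Lcn2 and Serpina3n were at 85.4 and 72.8 FPKM, against 4.01 and 12.2 FPKM of Lcn2 and 3.93 and 4.05 FPKM of Serpina3n in the other antagomir libraries and 2.81 to 4.10 and 4.08 to 14.2 FPKM in control libraries. The red blood cell marker Slc4a1 was at 0 in some libraries. The part of any of these cells in the members' values was not tested.

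In order of level, the members ran from Sparc through Sparcl1, Col9a1, Col6a1, Fn1, Optc, Tnc, Col6a2 and Thbs1 to Vcan. The ranges over the 6 libraries of neighbours in this order overlapped, except between Sparc and Sparcl1, between Col6a1 and Fn1 and between Thbs1 and Vcan.

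For the 3 members with the widest range, the protein-coding genes with the most similar profile were found among 12156 genes by the root mean square difference of centred log2(FPKM + 1) values over the 6 libraries. Nearest to Optc were Crhbp (0.315), Fbln1 (0.399) and Pmel (0.409). Crhbp was at 5.004, 1.84 and 4.61 FPKM in antagomir libraries and 3.29, 16.5 and 5.30 FPKM in control libraries. Fbln1, a matrix glycoprotein gene, was at 1.79, 0.535 and 2.22 against 0.862, 9.32 and 1.14 FPKM, and Pmel, a pigment cell gene, at 2.58, 1.21 and 4.31 against 3.23, 13.6 and 2.87 FPKM. Nearest to Col9a1 were Clec18a (0.113), Col9a2 (0.115) and Vstm4 (0.117). Col9a2, another chain of collagen IX, was at 8.24, 5.38 and 8.05 FPKM in antagomir and 6.75, 10.1 and 7.15 FPKM in control libraries. Its libraries ran in the same order as those of Col9a1, which its choice by profile favours. Col9a3, the remaining chain, was also highest in control replicate 2 but lowest in control replicate 1. Nearest to Fn1 were Fosl2 (0.0994), Gcnt4 (0.113) and Maff (0.114). Fosl2, which encodes an AP-1 subunit, was at 0.796, 1.17 and 1.503 FPKM in antagomir libraries and 1.11, 0.843 and 0.613 FPKM in control libraries.

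The wider matrix was read from 119 other genes on 8 lists by role, of which 85 were tested and none passed by limma, with 1 higher and 1 lower at an unadjusted p under 0.05. The groups did not overlap for 5 of the 85 genes (2 higher and 3 lower), or 5.88%, against 12.03% of all genes, and the median difference was 0.0044. These 5, named after their values were seen, were Mmp9, Cyr61, Spock2, P4ha2 and Bmp1. The matrix protease gene Mmp9 was at 4.59, 3.70 and 4.47 FPKM in antagomir libraries and 5.58, 6.69 and 5.99 FPKM in control libraries, a log2 difference of -0.43 (SE 0.0998, adjusted p = 0.733 by limma). Cyr61, which encodes the matricellular protein CCN1, was at 5.76, 9.10 and 7.57 FPKM against 4.99, 3.16 and 3.72 FPKM, a difference of 0.77 (SE 0.19, adjusted p = 0.790 by limma). Spock2, a Sparc-related proteoglycan gene, was at 45.0, 39.5 and 47.2 FPKM against 47.9, 61.0 and 48.4 FPKM, with its highest level in control replicate 2 as for Sparc and Sparcl1. P4ha2, a collagen prolyl hydroxylase subunit, was at 3.33, 3.30 and 3.35 FPKM against 4.56, 3.59 and 3.65 FPKM. Bmp1, which cleaves procollagen, was at 5.57, 10.6 and 5.58 FPKM against 5.32, 5.29 and 4.17 FPKM.

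**Figure D4:**
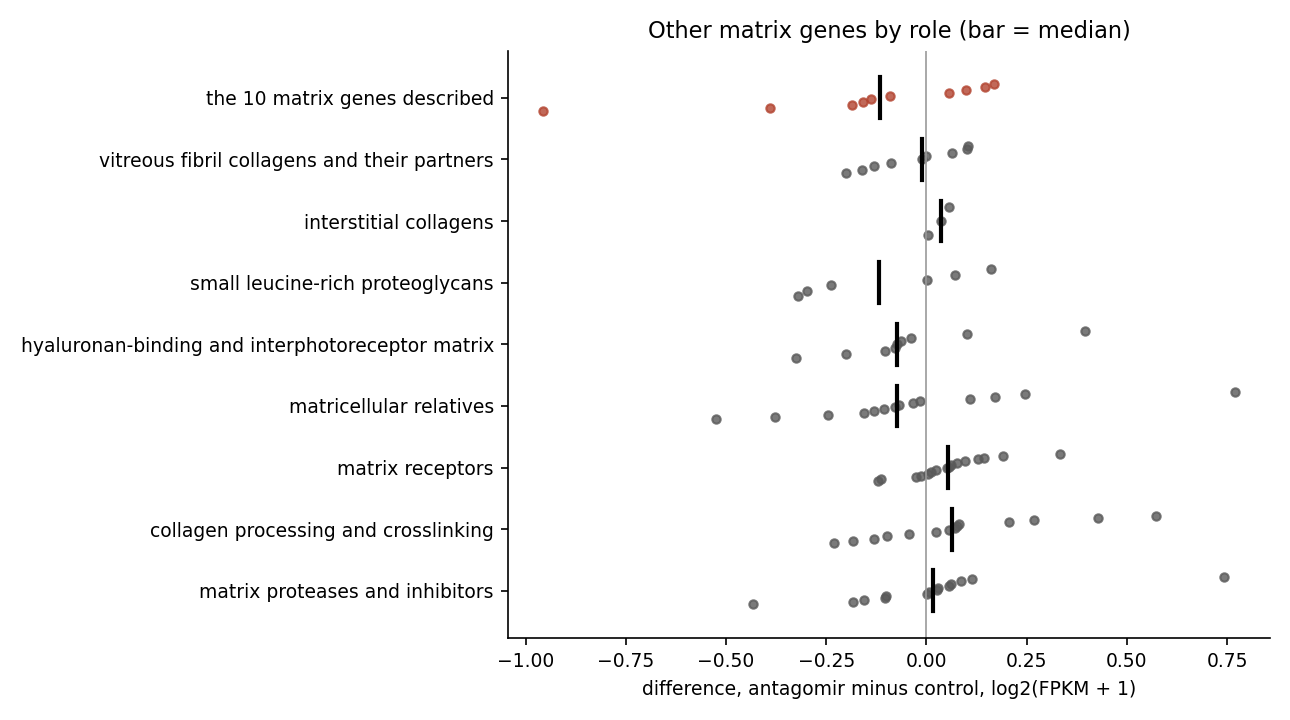
Difference, antagomir minus control, on the log2(FPKM + 1) scale for the 10 matrix genes described (red) and the other tested matrix genes by role (grey), with the median of each list as a black bar. List medians lie between -0.12 and 0.063, and the lowest point is Optc at -0.96.

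By role, vitreous fibril collagens and their partners gave 0 calls among 9 tested genes (median -0.012). The elastic fibre gene Mfap2 was at 46.0 to 61.5 FPKM in antagomir libraries and 47.2 to 51.3 FPKM in control libraries, Col2a1, the main vitreous fibril collagen, at 9.90 to 15.9 against 12.6 to 16.9 FPKM, and Col9a3 at 6.63 to 9.07 against 6 to 9.63 FPKM. Of these 9 genes, 7 were highest in control replicate 2, as were 32 of the 85 other matrix genes (37.6%) and 17.9% of all genes tested. Interstitial collagens had 3 tested genes (median 0.036), with Col6a4 at 1.47 to 1.77 against 1.45 to 1.603 FPKM and Col12a1 at 1.44 to 1.63 against 1.29 to 1.69 FPKM, and the fibroblast collagen Col1a2 was at 0.485 to 0.590 FPKM in antagomir libraries and 0.262 to 1.14 FPKM in control libraries. Small leucine-rich proteoglycans, the family of Optc, had 6 tested genes (median -0.12), with Prelp at 5.75 to 6.83 against 5.06 to 7.83 FPKM, Fmod at 1.28 to 1.65 against 0.955 to 4 FPKM and Podn at 1.28 to 2.14 against 1.26 to 1.73 FPKM.

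The hyaluronan-binding and interphotoreceptor genes (9 tested, median -0.073) were led by the photoreceptor matrix genes Impg1 at 73.6 to 99.1 FPKM in antagomir libraries and 82.8 to 98.8 FPKM in control libraries and Impg2 at 58.1 to 70.2 against 57.6 to 76.1 FPKM, with the tenascin gene Tnr at 5.54 to 6.15 against 5.79 to 7.04 FPKM. Matricellular relatives (14 tested, median -0.074) were led by vitronectin, Vtn, at 232 to 284 FPKM in antagomir libraries and 238 to 273 FPKM in control libraries, with Spock3 at 11.4 to 12.4 against 12.1 to 14.1 FPKM. Matrix receptors (16 tested, median 0.055) included the collagen receptor gene Ddr1 at 34.3 to 39.4 against 32.5 to 37.7 FPKM and the syndecan genes Sdc4 at 24.4 to 41.9 against 27.4 to 32.2 FPKM and Sdc3 at 21.1 to 26.3 against 23.2 to 24.9 FPKM. Collagen processing genes (14 tested, median 0.063) included P4hb at 54.8 to 62.1 against 55.0 to 61.9 FPKM, P4ha1 at 10.8 to 18.2 against 13.3 to 14.3 FPKM and the collagen chaperone Serpinh1 at 10.3 to 12.8 against 8.73 to 13.8 FPKM. Among proteases and inhibitors (14 tested, median 0.017) were Timp2 at 19.3 to 23.1 against 22.01 to 25.2 FPKM, Adam10 at 11.99 to 12.7 against 11.3 to 13.3 FPKM and Mmp2 at 10.6 to 13.0 against 10.2 to 11.5 FPKM. Of the 3 most abundant tested genes of each role, the groups overlapped for all but Spock2, where 12.03% of all genes tested did not overlap.

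CTTGTAT was also found in the 3′ UTR of 6 of the 85 other matrix genes tested, Col11a1, Impg2, Has3, Ptprz1, Adamts5 and Adam17. Over all tested genes with an annotated 3′ UTR, 13.25% held it. Of these 6 matrix genes, 2 had point estimates above 0 and 4 below (median -0.025). The groups overlapped for all 6, where 12.03% of all genes tested did not overlap, and 6 genes are too few to tell from that share.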

How the data were processed

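The authors deposited FPKM values for 54532 genes in 6 retinal libraries, with gene lengths, per the file headers. Per the labels' protocols, TRNzol was used for RNA and the SMARTER mRNA-Seq kit for libraries. The submitters' processing notes name GRCm38 and mm10. Not given in the sources used here are the aligner, counting tool and strandedness. Control columns carry the control's name and number, and the 3 columns with an unexplained letter were read as the antagomir libraries, on which every direction depends. Multiplied by gene length, 100% of the FPKM values were whole reads within 0.01 reads. Reads were rebuilt on this basis, and library depth limits low genes such as Vcan. Every library pair was further apart than counting noise, so none was treated as a repeat. The limma p-values set a group difference against the spread between libraries, part of which may be technical.

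Limma 3.58.1 (R 4.3.3, trended eBayes, two-sided, no covariates) was run on log2(FPKM + 1) for the 17453 genes with a mean of at least 0.5 FPKM, with Benjamini-Hochberg adjustment over all of them. Fold changes on this scale, and the ratios in their intervals, are of FPKM + 1 and understate those of low genes. The procedure was first tested on simulated data. Ratios within libraries used exact permutation tests. Alternatives were a pseudocount of 0.1, no filter, a 2 FPKM minimum, TPM, quantile normalization, voom, a replicate block, a lens score term and leaving out each library. Leaving out the lens libraries (over 100 FPKM of lens markers) was added after seeing the data. The members, lists and tests were chosen with earlier results of these data known. Named genes are the members, the 3 most abundant tested genes of each matrix list, the most abundant marker of each marker list (for 1 list the marker and its sum are not reported here), and the 3 nearest profiles of the 3 widest-ranging members. Sites were searched in the longest 3′ UTR per gene of GENCODE M21, whose coordinates matched for 98.3% of 54409 shared genes.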

Additional observations from a re-analysis of the deposited data

How the results depend on the processing

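No member was called under any of the 15 alternatives tried (14 for Thbs1 and Vcan, which a 2 FPKM minimum leaves out). Over these the limma log2 difference ran from -0.20 to -0.10 for Sparc, -0.49 to -0.21 for Sparcl1 and 0.10 to 0.21 for Col6a1, with no change of sign. Signs changed for Col6a2 (0.043 without the lens libraries), for Col9a1 (0.061 with the lens score term, 0.12 without the lens libraries, and from -0.34 to 0.10 leaving out single libraries) and for Fn1 (-0.032 with the lens score term, and from -0.032 to 0.35 leaving out single libraries). The cause was not tested. Of all genes tested, voom called 1 and leaving out single libraries called 0 to 2. Other matrix genes gave 0 calls throughout. The labels do not say whether the same replicate number in both groups marks a pair. Deviations of same-numbered libraries from their group means correlated at -0.194, -0.102 and -0.137. With 3 libraries per group, such correlations cannot settle whether they were paired. With a replicate block 0 genes were called and 856 had an unadjusted p under 0.05, and the Sparcl1 difference was -0.39 (adjusted p = 0.912 by limma). Taken within such pairs, the log2 ratios of Col6a2 to Col6a1 (-0.30) and Sparcl1 to Sparc (-0.24) have the same differences by arithmetic, with an exact sign-flip permutation p of 0.25 for each, the smallest 3 pairs can give. Depth limits Vcan (52 to 210 reads) and Optc (23 reads in its lowest library).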
